A study of Rattus norvegicus with 6 samples.

Results

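The glyoxalase enzymes and their relatives were followed in rat liver through 5 genes, Glo1, Hagh, Park7, Glod4 and Glod5, out of 15284 named genes with a probe on the array. They were taken as all 8 non-control probes whose RefSeq accession matched 1 of these symbols: 3 for Park7, 2 for Hagh and 1 each for the others. The genes were chosen by family with the processed signals of these same arrays in view, Glod5 being known to be dim in vehicle liver, so their differences between the groups are a description, with no test.

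Total RNA of whole liver was measured on 1-colour Agilent arrays (Cy3), 1 array per rat. The NTA group was 3 male Sprague-Dawley (Crl:CD(SD)) rats dosed at 1000 mg/kg/day with NTA, the trisodium monohydrate salt of nitrilotriacetic acid, which chelates metal ions, and the vehicle group was 3 male rats of the same strain. All rats were bought at 5 weeks of age. The labels name purified water as vehicle in one field and corn oil in another, and give the duration as 28 days in the series design and as 9 weeks in the treatment protocol; neither conflict was settled.

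Methylglyoxal is a reactive aldehyde that leaks from the triose phosphates of glycolysis and modifies arginine and lysine residues of proteins. Glyoxalase I (Glo1) turns its adduct with glutathione into S-D-lactoylglutathione, and glyoxalase II (Hagh) hydrolyses that to D-lactate and frees the glutathione; both enzymes hold a metal ion in the active site. Park7, the protein DJ-1, is a redox-responsive protein for which a glutathione-independent action on methylglyoxal has been described and is debated. Glod4 and Glod5 are named for a glyoxalase domain, and less is known of what they do.

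Signal was alike across arrays, with 62.4% to 64.5% of 61657 probes well above background. Vehicle replicate 3 stood apart in its median local background, 40 scanner units against 54 to 61 on the other arrays, and no other array was on its slide or scanned on its day. The 3 NTA arrays lay together on 1 slide and the vehicle arrays on others, and slide and treatment therefore cannot be told apart. All 8 hepatocyte markers examined, among them Alb, Apoa1 and Cps1, were well above background on all 6 arrays. Levels below are the log2 processed signal minus the log2 of the array's 75th percentile, so 0 is the 75th percentile, and differences are NTA minus vehicle on that log2 scale. Levels of different probes are not set against each other, because probes differ in brightness for the same amount of RNA.

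Glod5 was the 1 gene of the 5 whose groups did not overlap. Its level was −4.14, −3.20 and −4.33 in the 3 NTA rats, against −6.92, −6.84 and −6.60 in the 3 vehicle rats. Every NTA value lay above every vehicle value, and NTA replicate 2 was the highest of all. The group means were −3.89 ± 0.60 with NTA and −6.79 ± 0.17 with vehicle (SD, n = 3 each), a log2 difference of 2.90 (SE 0.30). The probe was well above background on 3 of 3 NTA arrays and on 0 of 3 vehicle arrays, so the vehicle level is not well measured. Set against the lowest signal of any probe well above background on each vehicle array, Glod5 was 2.53-fold higher with NTA. That ratio lay between 1.99-fold without NTA replicate 2 and 2.94-fold without NTA replicate 3. It is not a lower bound under every processing. The log2 difference was 0.44 with the normexp background correction described below, whose offset shrinks the log2 differences of faint spots by construction. In whole liver fewer or more cells of a type and less or more RNA per cell cannot be told apart.

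In scanner units the Glod5 spot was faint in both groups. Its processed signal was 29.7, 56.1 and 27.7 on the NTA arrays, against 4.27, 4.03 and 5.42 on the vehicle arrays, while the lowest signal of any probe well above background lay between 12.3 and 14.6 over the 6 arrays. The median spot intensity was 65, 91 and 65 with NTA and 37, 35 and 42 with vehicle. The local background beside the spot was 53, 55 and 62 with NTA and 56, 55 and 41 with vehicle. The spot therefore exceeded its local background by 12, 36 and 3 units on the NTA arrays and by −19, −20 and 1 units on the vehicle arrays. Normexp background correction models the spot and local background intensities and adds an offset of 50. With it the Glod5 difference was 0.44 (SE 0.12), and the groups still did not overlap. The normexp means were −2.47 ± 0.22 in NTA rats and −2.90 ± 0.10 in vehicle rats. An offset of 50 shrinks log2 differences at so faint a spot by construction, so 0.44 is not a second estimate of the fold.

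**Figure D1:**
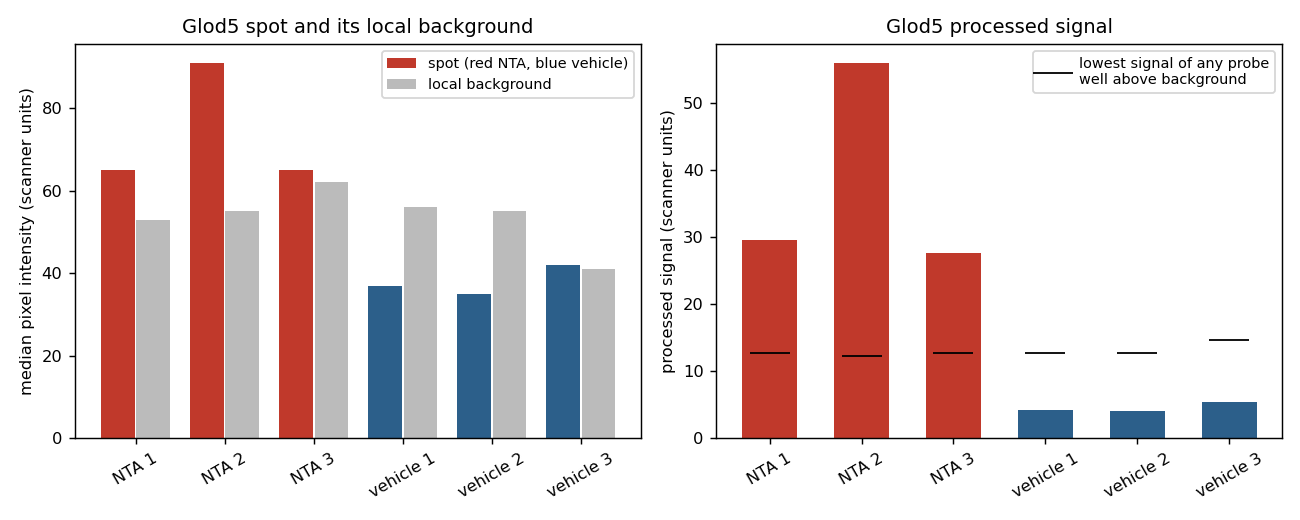
Left, median pixel intensity of the Glod5 spot (red NTA, blue vehicle) and of its local background (grey) on each array, in scanner units; right, the processed signal of the same spot, with a line at the lowest signal of any probe well above background on that array. The NTA bars, 27.7 to 56.1, stand above their lines and the vehicle bars, 4.03 to 5.42, stand below theirs.

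Few probes crossed the background limit between the groups. Glod5 was 1 of 96 probes that were well above background on all NTA arrays and on no vehicle array, 0.156% of 61657, and 27 probes (0.0438%) showed the opposite. Because Glod5 was chosen with its dim vehicle signal known, nothing is read from its place among the 96. The 43 other probes within 4 rows and 2 columns of the Glod5 spot had a median difference of −0.09, ranging from −0.95 to 0.36. For 2 of the 43 all NTA values lay above all vehicle values, as they did for 5.57% of all features tested. Only 19 of the 43 were dim, that is, not well above background on every array. The median difference of those 19 was −0.21 and their highest 0.36.

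The window around the annotated start of Glod5 is printed because this is the member with separated groups, and that of Glo1 because it is the pathway's entry enzyme. Both run from 250 bases before to 50 bases after the start, 5′ to 3′ on the gene's strand, from RefSeq on assembly GRCr8 (Glod5 at chrX:17145686-17145985, plus strand; Glo1 at chr20:8683031-8683330, minus strand). Capitals mark matches to TGCNCNC, a loose pattern for the metal response element that 49.6% of rat promoters hold.
Glod5: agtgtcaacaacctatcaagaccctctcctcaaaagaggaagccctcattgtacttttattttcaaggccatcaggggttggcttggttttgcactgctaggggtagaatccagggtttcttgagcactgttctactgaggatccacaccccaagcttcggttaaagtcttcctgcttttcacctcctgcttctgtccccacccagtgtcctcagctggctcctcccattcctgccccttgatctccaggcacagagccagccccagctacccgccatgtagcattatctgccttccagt
Glo1: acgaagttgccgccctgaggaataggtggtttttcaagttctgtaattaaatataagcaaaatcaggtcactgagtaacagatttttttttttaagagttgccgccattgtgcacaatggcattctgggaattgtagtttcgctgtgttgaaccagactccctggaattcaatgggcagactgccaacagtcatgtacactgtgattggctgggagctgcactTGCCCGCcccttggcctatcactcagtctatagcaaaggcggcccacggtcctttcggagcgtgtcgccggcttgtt

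All 5 genes had a window in that table, 7 windows in all because Park7 has 3. Of 3 motifs searched on both strands, the antioxidant response element core TGACNNNGC was in 0 of the 7 windows, against 12.1% of 33469 rat promoters. The E-box CACGTG was in 0 of 7, against 6.42% of promoters. The pattern TGCNCNC, looser than the usual metal response element core, was in 5 of 7, against 49.6% of promoters. Its matches lay in the windows of Glo1, Hagh and Park7; in Glo1 the match TGCCCGC began 27 bases before the start, and the windows of Glod5 and Glod4 held none. Some Park7 windows share bases with each other, and a TGCNCNC match in the shared bases was counted in each window that holds it. The 7 windows are therefore not independent. No match overlapped a match of another motif, and a match describes letters, not a bound site.

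Glo1, glyoxalase I, averaged slightly lower in NTA rats, with overlapping groups. It was at 3.76, 3.64 and 3.63 in the NTA rats, against 3.72, 3.79 and 3.85 in the vehicle rats. The groups overlapped through NTA replicate 1, which lay above vehicle replicate 1. The means were 3.68 ± 0.07 with NTA and 3.79 ± 0.07 with vehicle (SD, n = 3 each), a log2 difference of −0.11 (SE 0.10), which leaves the NTA signal at 92.7% of vehicle. With normexp the difference was −0.26 (SE 0.09) and all NTA values lay below all vehicle values.

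Hagh, glyoxalase II, gave small differences of the same sign on both of its probes. The brighter probe, A_43_P12737, was at 6.13, 6.02 and 5.82 in NTA rats, against 6.06, 6.06 and 6.17 in vehicle rats. The other, A_64_P156791, was at 5.45, 5.42 and 5.13 in NTA rats, against 5.50, 5.44 and 5.49 in vehicle rats. On both probes NTA replicate 3 was the lowest array and the groups overlapped. The log2 differences were −0.11 (SE 0.12) and −0.15, or 92.9% and 90.3% of vehicle. Without NTA replicate 3 the difference of the brighter probe was −0.02.

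Park7, DJ-1, had 3 probes that differed by −0.01 to 0.02 between the groups. The brightest, A_64_P058422, was at 6.23, 6.23 and 6.22 in NTA rats, against 6.10, 6.26 and 6.26 in vehicle rats. Its NTA values lay inside the range of the vehicle values, with means of 6.23 ± 0.01 with NTA and 6.21 ± 0.09 with vehicle (SD, n = 3 each) and a difference of 0.02 (SE 0.10). The probe A_64_P014281 was at 5.13, 5.14 and 5.12 in NTA rats, against 5.03, 5.15 and 5.21 in vehicle rats. The probe A_44_P1031202 was at 4.75, 4.77 and 4.77 in NTA rats, against 4.75, 4.84 and 4.69 in vehicle rats. On each of the 3 probes the SD over NTA rats was about 0.01 and that over vehicle rats was between 0.08 and 0.09.

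Glod4, a glyoxalase-domain protein, differed between the groups by less than its SE. It was at 1.53, 1.27 and 1.53 in NTA rats, against 1.39, 1.40 and 1.61 in vehicle rats. NTA replicate 2 was the lowest array and vehicle replicate 3 the highest. The difference was −0.02 (SE 0.13), with means of 1.44 ± 0.15 with NTA and 1.46 ± 0.12 with vehicle (SD, n = 3 each). Its sign was not stable, from −0.07 without NTA replicate 1 to 0.07 without NTA replicate 2.

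**Figure D2:**
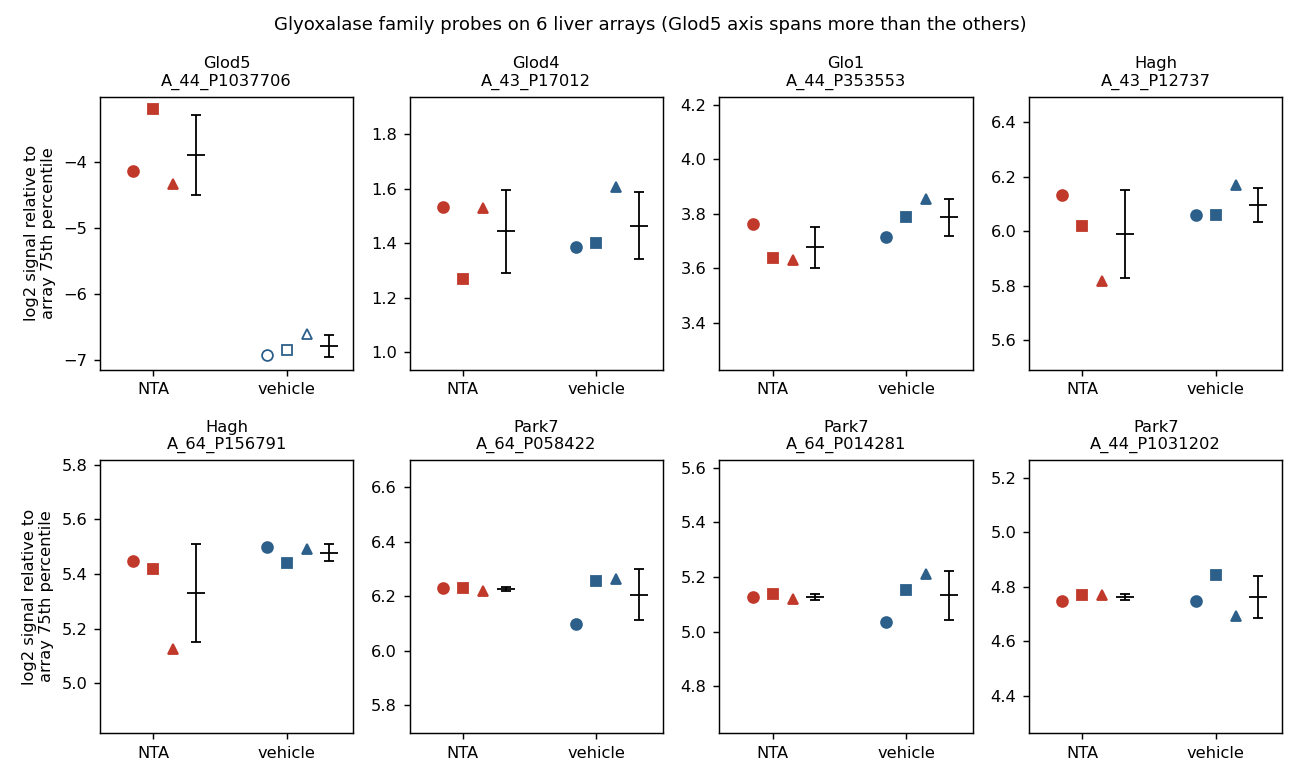
Level of each of the 8 probes (log2 signal, with the 75th percentile of its array at 0) in NTA rats (red, left) and vehicle rats (blue, right). Circles, squares and triangles are replicates 1, 2 and 3, open symbols are not well above background, and the black bars are mean ± SD of 3 rats; the axes of the probes other than Glod5 each span 1 log2 unit. The Glod5 groups are apart, at −4.33 to −3.20 with NTA and −6.92 to −6.60 with vehicle, and the groups of the other 7 probes overlap.

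Across all 30353 features tested, limma called 9 at a Benjamini-Hochberg adjusted p under 0.05 (0.0297%), all higher with NTA. Of the 5 genes described here 0 were among them. An unadjusted p under 0.05 was found for 7.57% of all features (3.66% higher and 3.91% lower with NTA). The groups did not overlap for 1 of 5, Glod5 with NTA above, against 13.6% of all features (5.57% with NTA above and 8.03% with NTA below). Because the contrast helped to pick the genes, and the filter kept Glod5 through the NTA arrays alone, nothing is read from these counts. The pooled SD within groups was 0.07 for Park7 and for Glo1, 0.12 for Hagh, 0.14 for Glod4 and 0.44 for Glod5, beside a median of 0.19 over all features.

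The step from the background-subtracted to the processed signal of the deposited scanner files differed between the slides at some of these spots. At the Glo1 spot, in row 343 of 384, the processed signal was 1.15 to 1.18 times the subtracted signal on the NTA arrays and 1.01 to 1.06 times on the vehicle arrays. At the Park7 probe A_44_P1031202, in row 382, the ratio was 1.14 to 1.17 with NTA and 0.96 to 1.05 with vehicle. The other 6 probes had ratios that overlapped between the groups or, for Park7 A_64_P058422, were slightly apart, at 0.843 to 0.849 with NTA and 0.852 to 0.870 with vehicle. At the Glod5 spot it was 0.92 to 0.94 with NTA and 0.92 to 0.95 with vehicle. With normexp, which starts from the median spot intensity and so leaves that step out, Park7 A_44_P1031202 differed by −0.19 with all NTA values below all vehicle values, and Park7 A_64_P058422 by 0.07 with all NTA values above, so that these probes of 1 gene separated in opposite directions. The groups of A_64_P014281 overlapped, with a difference of 0.03. Over 36174 probes well above background on all 6 arrays, the ratio was higher on every NTA array than on every vehicle array for 31.8% and lower for 26.9%. How much of each difference rests on this step was not tested.

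**Figure D3:**
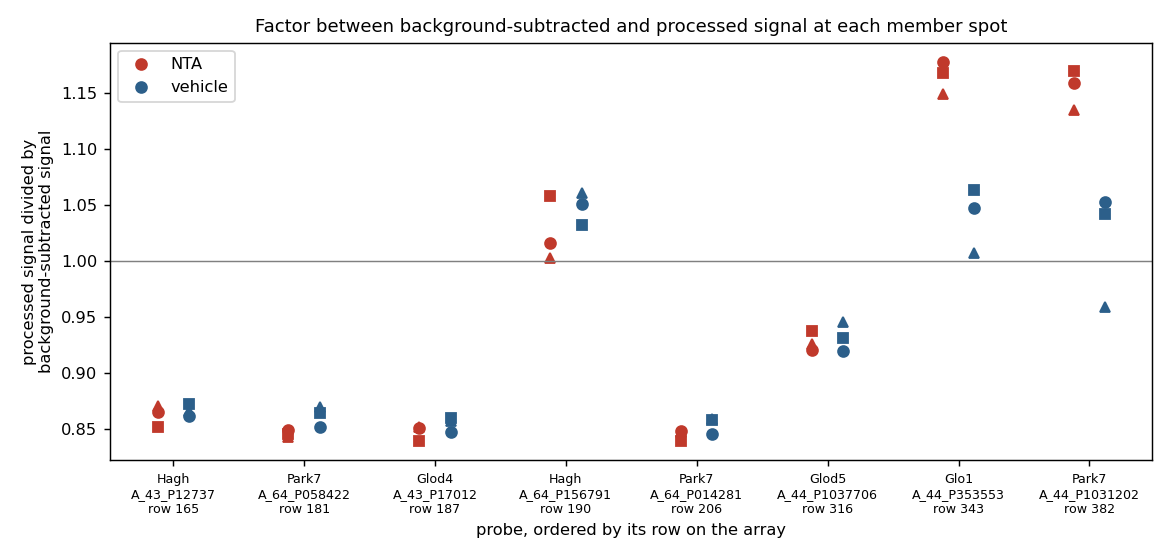
Processed signal divided by background-subtracted signal at the spots of the 8 probes, ordered by row on the array, for NTA arrays (red, left) and vehicle arrays (blue, right). For Glo1 and Park7 A_44_P1031202, in rows 343 and 382, the NTA arrays sit at 1.14 to 1.18 and the vehicle arrays at 0.96 to 1.06.

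The genes whose profile over the 6 arrays was most like that of each member were found by Pearson's r among 11240 other named genes, as a description over arrays that share the grouping. For Glod5 they were Slc25a4, a mitochondrial ADP/ATP carrier, at r = 0.989, Rhd, an erythroid blood group protein, at 0.988, and Pced1b at 0.987, whose own differences were 0.47, 1.00 and 0.53. In all 159 genes had an r above 0.9 with Glod5. For Glo1 they included Gspt1, a translation termination factor, at r = 0.989 and Uqcrh, a subunit of respiratory complex III, at 0.987. For Hagh they were Casp6, mrpl11 and Ndufs7, a subunit of complex I (r = 0.982 to 0.986). For Park7 they were Vdac1, the mitochondrial outer membrane channel, Or13p4 and Snx24 (r = 0.986 to 0.992), and for Glod4 Nsa2, Selenos and Hnrnpf (r = 0.979 to 0.989).

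Of 9 marker lists of cells other than hepatocytes, 4 had summed signals separated between the groups, all with NTA above, and 5 overlapped. The hepatocyte list was separated the other way, with NTA below. Over all single features the groups did not overlap for 13.6%, 5.57% with NTA above and 8.03% with NTA below. No list was tested. The summed signal, in multiples of the array's 75th percentile, was 276 to 418 in NTA rats and 226 to 254 in vehicle rats for 5 erythroid markers. For 5 sinusoidal endothelial markers it was 59.2 to 63.8 with NTA and 46.8 to 56.7 with vehicle, and for 5 cell cycle markers 4.53 to 5.26 with NTA and 3.59 to 4.36 with vehicle. For 4 neutrophil markers, of which Elane and Ltf were not well above background on any array, it was 1.97 to 4.60 with NTA and 0.741 to 1.94 with vehicle. The 8 hepatocyte markers summed to 4604 to 4793 with NTA and 4924 to 5415 with vehicle. The sums of the Kupffer cell, stellate cell, cholangiocyte, lymphocyte and adipocyte markers overlapped between the groups. The erythroid list includes Rhd, named above, whose mean level was −1.98 with NTA and −2.98 with vehicle. Rhd therefore adds little to that sum, which brighter probes set. The part of these shifts in the Glod5 values was not tested.

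Around these 5 genes, 97 genes in 10 lists of the methylglyoxal pathway were examined, of which 86 were tested. In limma 1 of the 86 passed over all features, Gstp1. An unadjusted p under 0.05 was found for 9, 7 higher and 2 lower, which is 10.5% against 7.57% of all features. The 7 include Akr1b10, which the filter kept through the NTA arrays alone. Of all features 3.66% were higher and 3.91% lower at that threshold, shares that also stand beside the counts of each list below. The median difference over the 86 was 0.00, beside −0.03 over all features. Gstp1, a glutathione S-transferase, was at 5.94 ± 0.15 in NTA rats and 3.23 ± 0.24 in vehicle rats (log2 difference 2.70, SE 0.16; limma, Benjamini-Hochberg adjusted p = 0.0064). Its call was lost without NTA replicate 1 (adjusted p = 0.087) or NTA replicate 2 (adjusted p = 0.052), over a range of 0.0009 to 0.17 across all alternatives.

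The reactions that make methylglyoxal showed no called gene. Of 16 tested genes of triose phosphate, fructose, glycerol, threonine and acetone metabolism, 0 passed in limma, 0 had an unadjusted p under 0.05, and 6 lay above 0, with a median of −0.10. Tpi1, the isomerase that joins the 2 triose phosphates, was at 5.33 ± 0.13 in NTA rats and 5.33 ± 0.07 in vehicle rats. The smallest p belonged to the aldolase Aldoa, with a difference of 0.44 (SE 0.20), and to Aoc3, an amine oxidase that can form methylglyoxal from aminoacetone, at 0.87 (SE 0.43), with limma adjusted p of 0.69 and 0.70. Of the other 2 probes of Aoc3, 1 was well above background on all 6 arrays and gave 0.15, and the other was so on only 2 arrays.

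The reductases and dehydrogenases that take methylglyoxal as an alternative to the glyoxalases held the widest differences, though none was called. Of 14 tested, 0 passed in limma and 4 had an unadjusted p under 0.05, all higher, with a median of 0.07 over the list. Over all features 3.66% were higher at that threshold. The 4 include Akr1b10, which the filter kept through the NTA arrays alone. Akr7a3, an aldo-keto reductase, was at 6.03 ± 0.54 in NTA rats and 4.43 ± 0.17 in vehicle rats (difference 1.60, SE 0.27; limma adjusted p = 0.38). Akr1b10 was well above background on 3 NTA arrays and on 0 vehicle arrays. It was therefore kept only through the group where it is high, and nothing is read from its p (limma adjusted p = 0.26). Set against the lowest signal of any probe well above background on each vehicle array, it was 2.10-fold higher with NTA, which is not a lower bound. Its measured means were −4.16 ± 0.50 with NTA and −6.82 ± 0.60 with vehicle. Its other probe was well above background on only 4 of 6 arrays, and with normexp the difference of Akr1b10 was 0.39. Akr1b8 was at 2.22 ± 0.06 with NTA and −1.22 ± 1.44 with vehicle (difference 3.44, SE 0.66; limma adjusted p = 0.42), and passed only without vehicle replicate 2 (adjusted p = 0.0035). The Akr1b genes are close copies, so their probes may share signal. Akr1a1, the aldehyde reductase, was at 4.23 ± 0.09 with NTA and 4.25 ± 0.13 with vehicle.

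**Figure D4:**
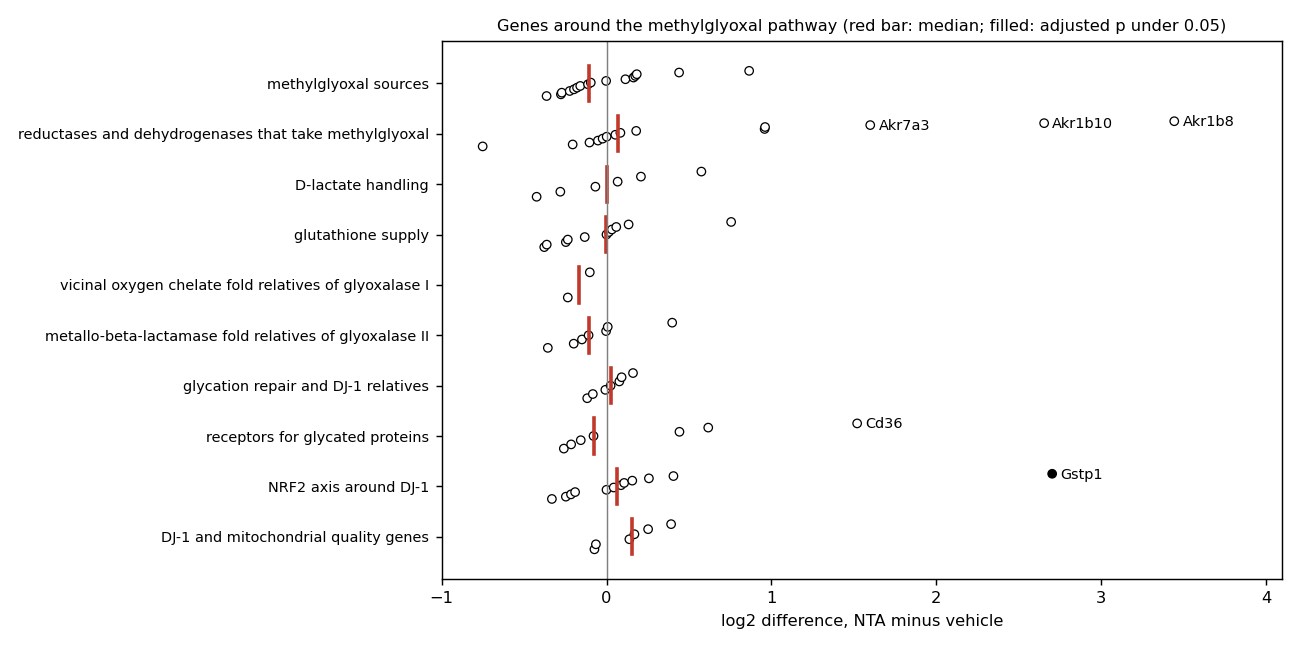
Log2 difference, NTA minus vehicle, of each tested gene in 10 lists around the methylglyoxal pathway. Each circle is a gene, red bars are list medians, and the 1 filled circle is Gstp1 at 2.70, the gene past the adjusted threshold; open circles beyond 1.2 are named.

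Glutathione, which Glo1 needs as a partner and Hagh returns, was followed through the 11 tested genes of the glutathione supply list. This list mixes genes of its synthesis, recycling and breakdown, and had a median of 0.00. In limma 0 of them passed and 0 had an unadjusted p under 0.05. Gclc, the catalytic subunit of the rate-limiting ligase, was at 4.68 ± 0.30 in NTA rats and 4.68 ± 0.14 in vehicle rats. Its modifier subunit Gclm was at −4.50 ± 0.60 with NTA and −4.26 ± 0.45 with vehicle. Glutathione synthetase, Gss, differed by −0.36 (SE 0.16; limma adjusted p = 0.68) with separated groups, and glutathione reductase, Gsr, by 0.13 (SE 0.12). Gsr was at 0.27 with normexp and 0.06 without NTA replicate 1, and Gclm had no stable direction, at −0.55 without NTA replicate 1 and 0.06 without NTA replicate 3. The cyclotransferase Ggct differed by −0.23 (SE 0.13; limma adjusted p = 0.73), and its groups were separated too.

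The handling of the D-lactate end product and of lactate in general held 6 tested genes, 0 called in limma, and 1 lower at an unadjusted p under 0.05. That gene was the monocarboxylate transporter Slc16a1, at 2.19 ± 0.29 in NTA rats and 2.61 ± 0.13 in vehicle rats (difference −0.42, SE 0.17; limma adjusted p = 0.64). Ldha, a subunit of L-lactate dehydrogenase, differed by −0.28 (SE 0.16; limma adjusted p = 0.74). No probe was matched to Ldhd, the D-lactate dehydrogenase, or to Haghl, the hydrolase most like Hagh by name, and they were not analysed here.

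Among proteins that share a fold with the 5 genes, 0 of 9 tested were called in limma. Of the relatives of Glo1, the methylmalonyl-CoA epimerase Mcee differed by −0.23 on its brighter probe and −0.23 on the other (SE 0.13; limma adjusted p = 0.73), and the tyrosine-pathway dioxygenase Hpd by −0.10 (SE 0.16), or 0.01 without vehicle replicate 2. Of 7 metallo-beta-lactamase fold relatives of Hagh, 1 was higher and 1 lower at an unadjusted p under 0.05. These were Elac1, a tRNA-processing nuclease, at 0.40 (SE 0.13; limma adjusted p = 0.57) and Pnkd at −0.36 (SE 0.14; limma adjusted p = 0.63). With normexp Elac1 was at 0.16.

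Repair of glycated proteins and the partners of DJ-1 held no called gene other than Gstp1. Of 7 repair genes and relatives of DJ-1, 0 passed in limma and 0 had an unadjusted p under 0.05, with Fn3k, the fructosamine kinase, at 0.16 (SE 0.26; −0.02 without NTA replicate 3 and 0.46 without NTA replicate 1), Pcmt1, a protein repair methyltransferase, at −0.12 (SE 0.11) and Gatd3a at 0.08 (SE 0.12). Of 12 genes of the axis of NRF2, the transcription factor that DJ-1 has been linked to, 1 passed in limma and 7 lay above 0, with a median of 0.07 that was −0.01 without vehicle replicate 1. NRF2's own gene Nfe2l2 differed by −0.33 (SE 0.19), its inhibitor Keap1 by 0.09 (SE 0.12; 0.22 with normexp) and its target Nqo1 by −0.19 (SE 0.56). Nqo1 had no stable direction, at −0.59 without NTA replicate 3 and 0.48 without NTA replicate 2. Of 6 genes of mitochondrial quality control around DJ-1, 0 passed in limma and 0 had an unadjusted p under 0.05, with Lrrk2 at 0.39 (SE 0.24), Htra2 at 0.17 (SE 0.11) and a median of 0.15.

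Receptors for glycated proteins gave 0 calls in limma among 7 tested and 1 gene higher at an unadjusted p under 0.05. That gene was the scavenger receptor Cd36, which also carries fatty acids, at 3.85 ± 0.70 in NTA rats and 2.33 ± 0.20 in vehicle rats (difference 1.52, SE 0.34; limma adjusted p = 0.48). Its other 2 probes gave 1.53 and 1.47. Ager, the receptor for advanced glycation end products, differed by −0.21 (SE 0.16), or −0.05 without NTA replicate 3, and the macrophage scavenger receptor Msr1 by 0.44 (SE 0.19; limma adjusted p = 0.67).

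**Figure D5:**
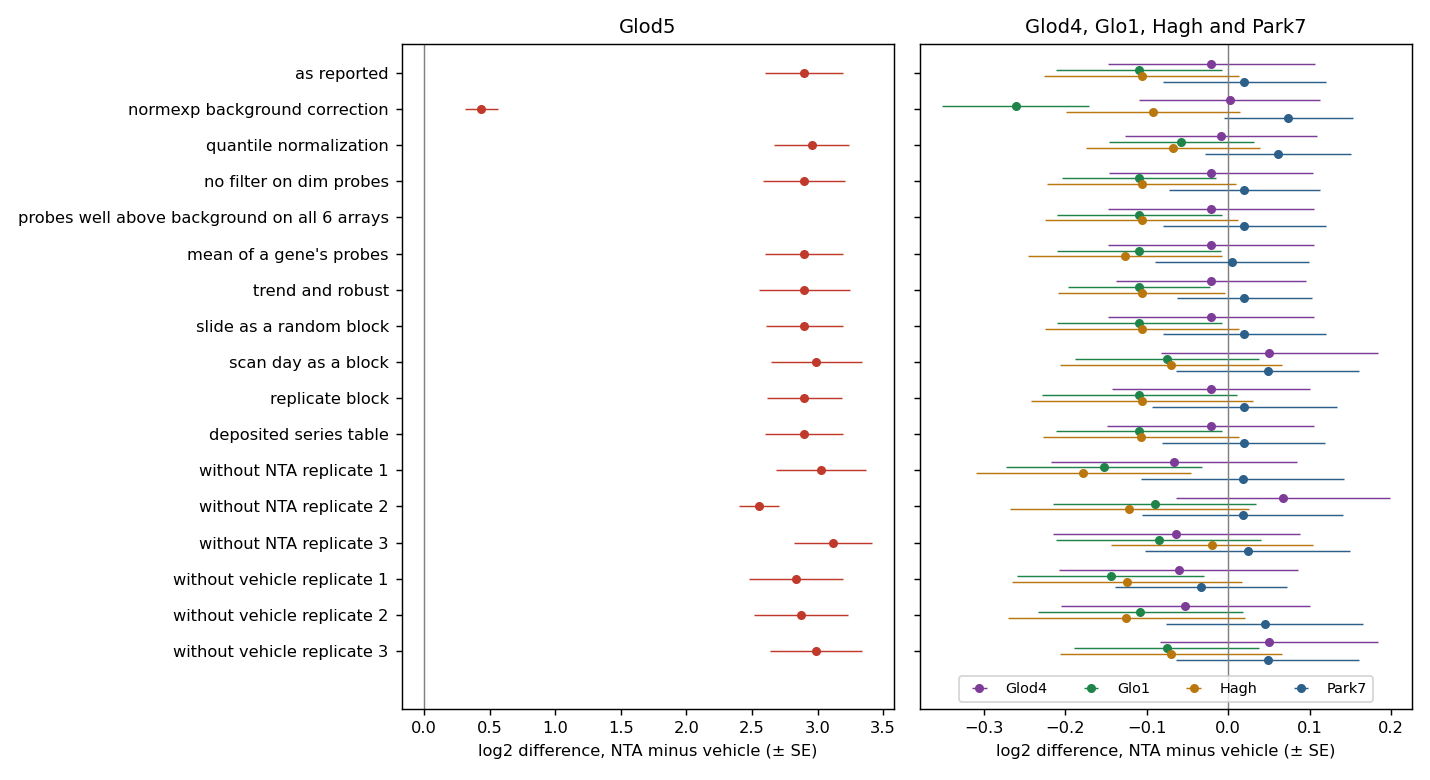
Log2 difference, NTA minus vehicle, with its SE (bars) for the brightest probe of each of the 5 genes as reported and under each alternative setting; Glod5 has no value when only probes well above background on all 6 arrays are kept. Glod5 stays between 2.55 and 3.12 except with normexp, at 0.44, and the other 4 genes stay between −0.26 and 0.07.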

How the data were processed

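Per the submitters' processing notes the arrays were quantified with Agilent Feature Extraction 10.7, and per the file headers with version 10.7.1.1; the headers name build rn4. The deposited scanner files give the processed signal as an intensity per spot, per the file headers, with median spot, local background and background-subtracted intensities and flags. In the series table the authors deposited, each value is a ratio on a linear scale: processed signal over the 75th percentile of its array (100.0% of values within 0.0001 plus 0.2%), so it is not an independent check. Its column medians lay between 0.096 and 0.1, and it is neither centred nor logged.

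From these files log2(gProcessedSignal) minus log2 of the array's 75th percentile was computed. Probes with a non-uniformity flag were set to missing, and no spot of the 5 genes carried one. The accession matched exactly 1 RefSeq symbol for 27460 probes. The other 34197 were left unnamed, as theirs matched no symbol or more than 1. A probe was kept if well above background on all arrays of a group, and the brightest probe stood for a gene. limma 3.58.1 (R 4.3.3), lmFit and eBayes, was fitted to all 30353 features, two-sided, with Benjamini-Hochberg adjustment, and tested on simulated data. The normexp alternative used median spot intensities, because the scanner files hold no mean intensity. Members, lists and tests were chosen with earlier results of these data known. For each list the text names the genes that passed, or the 2 lowest in p if none did, and a fixed set; some genes that the rules pick are not reported here. Replicate numbers did not pair the rats (r of same-numbered deviations −0.07 to 0.17). Each array was taken as 1 rat, and the number of arrays limits precision.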

Additional observations from a re-analysis of the deposited data

How the results depend on the processing

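Of the alternatives to the values reported for the 5 genes, those for Glod4, Hagh and Park7 all moved by less than 1 SD, and Glod5 and Glo1 moved further only with normexp, to 0.44 and −0.26. With 1 array left out, Glod5 ran from 2.55 to 3.12, Glod4 from −0.07 to 0.07, Glo1 from −0.15 to −0.08, Hagh from −0.18 to −0.02 and Park7 from −0.03 to 0.05. The number of features called by limma ran from 2 without NTA replicate 1 to 10 without vehicle replicate 2, and nothing is read from whether the 5 genes were among them, since they were picked with these signals in view. With the replicate number as a block, limma called 0 features (2321 at an unadjusted p under 0.05), and Gstp1 had an adjusted p of 0.17; as the numbers do not pair the rats, this says only that the block costs degrees of freedom, and in this balanced design it leaves each difference, such as the 2.90 of Glod5, as it was by construction. With 12 calls, trend and robust gave the most among settings that kept all arrays. Of the list medians under alternatives 155 stayed within 1 SD and 5 moved further: D-lactate handling, 0.00 as reported, was 0.11 with normexp, 0.11 with scan day as a block and 0.11 without vehicle replicate 3, and glycation repair, 0.02 as reported, was 0.12 with scan day as a block and 0.12 without vehicle replicate 3. Across arrays left out, D-lactate handling ran from −0.06 to 0.11, glycation repair from −0.03 to 0.12, glutathione supply from −0.08 to 0.06 and the NRF2 axis from −0.01 to 0.09, so none of these 4 medians had a stable sign. Vehicle replicate 3 was the only array scanned on its day. The scan day block and leaving that array out therefore give the same estimates by construction, and are 1 check. The cause of the moves was not tested. Glod5 rests on 1 probe near background, so its fold depends on the background correction and on any offset added, and is not settled.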
